A study of Mus musculus with 8 samples.

Results

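Kinesins, dyneins and dynactin are the proteins that move cargo, chromosomes and spindle microtubules along microtubule tracks. The genes described here are the protein-coding genes of the RNA-seq table whose names belong to the kinesin heavy chains (Kif and Kifc), the kinesin accessory subunits (Kifap3 and the light chains Klc1 to Klc4), the cytoplasmic dynein chains (Dync1, Dync2 and Dynl) and dynactin (Dctn1 to Dctn6). The name rule found 66 genes among the 32567 genes of the table, of which 19027 are protein-coding. They comprise 44 kinesin genes, 16 dynein genes and 6 dynactin genes, and were sorted by role into 12 mitotic kinesins, 17 transport kinesins, 5 accessory subunits of transport kinesins, 6 kinesins of cilia and centrioles, 4 other kinesins, 5 chains of cytoplasmic dynein 1, 2 chains of dynein 2, 9 dynein light chains and 6 dynactin subunits. Of the 66 genes, 64 passed the limit on expression (mean log2 CPM above 0 over the 4 libraries). Kif12, with 1 count in all, and the light chain Dynlrb2 did not pass.

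The study compared 2 mouse lines of embryonic stem cells (ESC), one wild type and one Htt-null (Hdh ex4/5 on both alleles, which inactivates the huntingtin gene Htt). Poly-A RNA was sequenced before differentiation and after the cells had formed embryoid bodies and received retinoic acid (RA-DIFF). The study's methods give removal of feeder cells as a step before the embryoid bodies. They do not say whether the sequenced ESC were free of feeders. RA-DIFF cells of both lines were collected shortly after the dissociated embryoid bodies had been plated. There was 1 library per condition, 4 in all, with 63617410 to 110569127 counts each. No difference below therefore has a replicate check, and each genotype is 1 cell line, so that genotype and line cannot be told apart.

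Values are TMM-normalised CPM (read counts scaled to the size of their library), listed in the order wild-type ESC, Htt-null ESC, RA-DIFF labelled wild type and RA-DIFF labelled Htt-null. The stage difference is the mean log2 CPM of the 2 RA-DIFF libraries minus that of the 2 ESC libraries, with the range over the 4 RA-DIFF and ESC library pairs as its spread. A gene was called higher or lower in RA-DIFF when all 4 pairs differed by more than 0.75 on the log2 scale in the same direction. This call does not use the genotype labels. A genotype difference, which rests on 1 pair of libraries, was called past the same limit of 0.75. At this depth counting error is small for most of these genes. In the 50 motor genes with at least 1000 counts in every library, the 95% Wilson interval of each value spans at most ± 5.94% of it, which covers counting error only.

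Htt itself, at 166, 111, 73.3 and 98.7 CPM, was lower in the Htt-null than in the wild-type ESC library (log2 difference -0.58) but in RA-DIFF the library labelled Htt-null was the higher one (0.43). The RA-DIFF values thus go against their labels, and the expression values that the study tabulates per condition follow the opposite assignment of both RA-DIFF columns. Differences between the RA-DIFF libraries are given by label, and each changes sign if the labels are exchanged. The stages matched their markers. The sum of 8 pluripotency markers was 5425, 4638, 55.6 and 13.4 CPM, and that of 12 neuron markers was 341, 352, 3056 and 1385 CPM. Fibroblast and mesenchyme markers also differed between the RA-DIFF libraries, with sums of 1341, 1210, 718 and 2818 CPM over 12 genes. Most of the ESC sums came from Fn1, at 1290, 1173, 92.8 and 372 CPM. In RNA from whole cultures, fewer cells of a type and less RNA per cell cannot be told apart.

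A kinesin motor walks along a microtubule, in most families towards its plus end, and families differ in what they carry. Mitotic kinesins build the spindle, align chromosomes and complete cytokinesis, so their transcripts are abundant in dividing cells. Transport kinesins carry vesicles, mitochondria and RNA granules, and neurons, whose axons are long, use many of them. Cytoplasmic dynein 1, with its activator dynactin, is the main motor towards the minus end, and dynein 2 drives the return leg of transport inside cilia. Huntingtin is known as a scaffold that binds kinesin and dynein complexes through partner proteins.

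Mitotic and transport kinesins differed in the letters of their promoters, which were searched for elements known from cell cycle genes. Sequences of 250 bases before and 50 bases from the annotated start were read from RefSeq (GRCm38.p6). Of the 66 genes 50 had an entry, and 45 had one whose start lay within 1000 bases of the deposited gene start. The letters searched on both strands were CCAAT (the CCAAT box), TTTGAA (a core of the cell cycle homology region found in genes of late cell cycle phases) and TTTGGCGC or TTTCCCGC (E2F sites). Of 9 promoters of mitotic kinesins, 8 (88.9%) held TTTGAA, against none of 11 entries of transport kinesins, 13.2% of the 15903 promoters of all genes of the table and 10.7% of the 10440 promoters of tested protein-coding genes. Without the limit on the start, which was set after the sequences had been seen, 10 of 11 entries of mitotic kinesins and 1 of 13 of transport kinesins, a second Kif1a entry, held TTTGAA, against 17.9% of all 32851 entries. CCAAT was found in 6 of 9 promoters of mitotic kinesins and 4 of 11 entries of transport kinesins, against 37.6% of all promoters. Both letters together stood in 6 of 9 and in 0 of 11, against 5.46% of all promoters, and E2F sites in 2 of 9 and in 0 of 11, against 2.38%. Both letters together were not limited to mitotic kinesins, since Kif27 and Kif26b also held them. These matches are a description of the window and were not tested as binding sites.

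The promoters of the 3 mitotic and 2 transport kinesins with the largest stage differences among genes with such an entry are shown to let the elements be seen. Each runs 5′ to 3′ on the strand of its gene, from 220 bases before the start to 30 bases from the start on, with matches to the 3 motifs in capitals on either strand (ATTGG is CCAAT, and GCGCCAAA is an E2F site, read from the other strand).
Kif20b, chr19:34922138-34922387, plus strand: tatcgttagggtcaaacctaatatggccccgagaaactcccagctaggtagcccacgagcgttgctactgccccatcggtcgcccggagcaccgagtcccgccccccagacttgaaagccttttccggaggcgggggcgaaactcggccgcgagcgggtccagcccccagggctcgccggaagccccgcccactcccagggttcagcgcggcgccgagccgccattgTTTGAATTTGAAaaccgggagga
Kif23, chr9:61946770-61947019, minus strand: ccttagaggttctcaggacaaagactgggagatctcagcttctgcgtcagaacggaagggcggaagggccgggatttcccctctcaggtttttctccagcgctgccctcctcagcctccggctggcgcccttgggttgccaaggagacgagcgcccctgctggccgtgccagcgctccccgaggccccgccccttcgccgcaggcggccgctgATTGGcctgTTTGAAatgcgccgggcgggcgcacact
Kif18a, chr2:109280518-109280767, plus strand: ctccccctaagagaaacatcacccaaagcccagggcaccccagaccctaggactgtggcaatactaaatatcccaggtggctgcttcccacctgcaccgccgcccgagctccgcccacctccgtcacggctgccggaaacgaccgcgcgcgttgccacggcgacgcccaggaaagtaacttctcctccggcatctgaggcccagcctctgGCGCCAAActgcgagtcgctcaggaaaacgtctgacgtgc
Kif1a, chr1:93101845-93102094, minus strand: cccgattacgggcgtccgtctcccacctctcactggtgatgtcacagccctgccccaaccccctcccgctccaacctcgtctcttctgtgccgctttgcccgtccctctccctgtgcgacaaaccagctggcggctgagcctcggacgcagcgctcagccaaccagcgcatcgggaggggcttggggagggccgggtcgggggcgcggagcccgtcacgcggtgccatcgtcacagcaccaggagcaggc
Kif21a, chr15:91049922-91050171, minus strand: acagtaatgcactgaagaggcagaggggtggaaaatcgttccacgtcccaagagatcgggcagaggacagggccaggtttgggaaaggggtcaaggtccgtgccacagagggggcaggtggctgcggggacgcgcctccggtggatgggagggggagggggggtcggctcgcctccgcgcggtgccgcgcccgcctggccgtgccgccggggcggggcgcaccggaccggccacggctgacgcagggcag
Kif20b held TTTGAA back to back at positions 8 and 14, counted from 1 at the first transcribed base, and Kif23 held it at position 3, with a CCAAT box that begins 7 bases before the start. Kif18a, the exception among the 9, held an E2F site and no TTTGAA. Neither of the printed transport promoters held any of the 3 motifs.

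Across the stages, 19 of the 64 motor genes were called higher in RA-DIFF than in ESC and 4 were called lower, and 41 lay within the limit. Of all 14417 genes past the expression limit, 25.6% were called higher and 18.5% lower, and their median stage difference was 0.14. The median over the 64 motor genes was 0.45. The counts differed by role, although the ranges of the classes overlapped and the difference was not tested: 0 of 12 mitotic kinesins and 7 of 17 transport kinesins were called higher, with median stage differences of -0.46 and 0.74. The summed level of the mitotic kinesins was 2164, 1868, 1441 and 1516 CPM, and that of the transport kinesins was 1184, 1066, 2659 and 2276 CPM. Mitotic kinesins thus had the larger sum in both ESC libraries and transport kinesins in both RA-DIFF libraries.

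**Figure D1:**
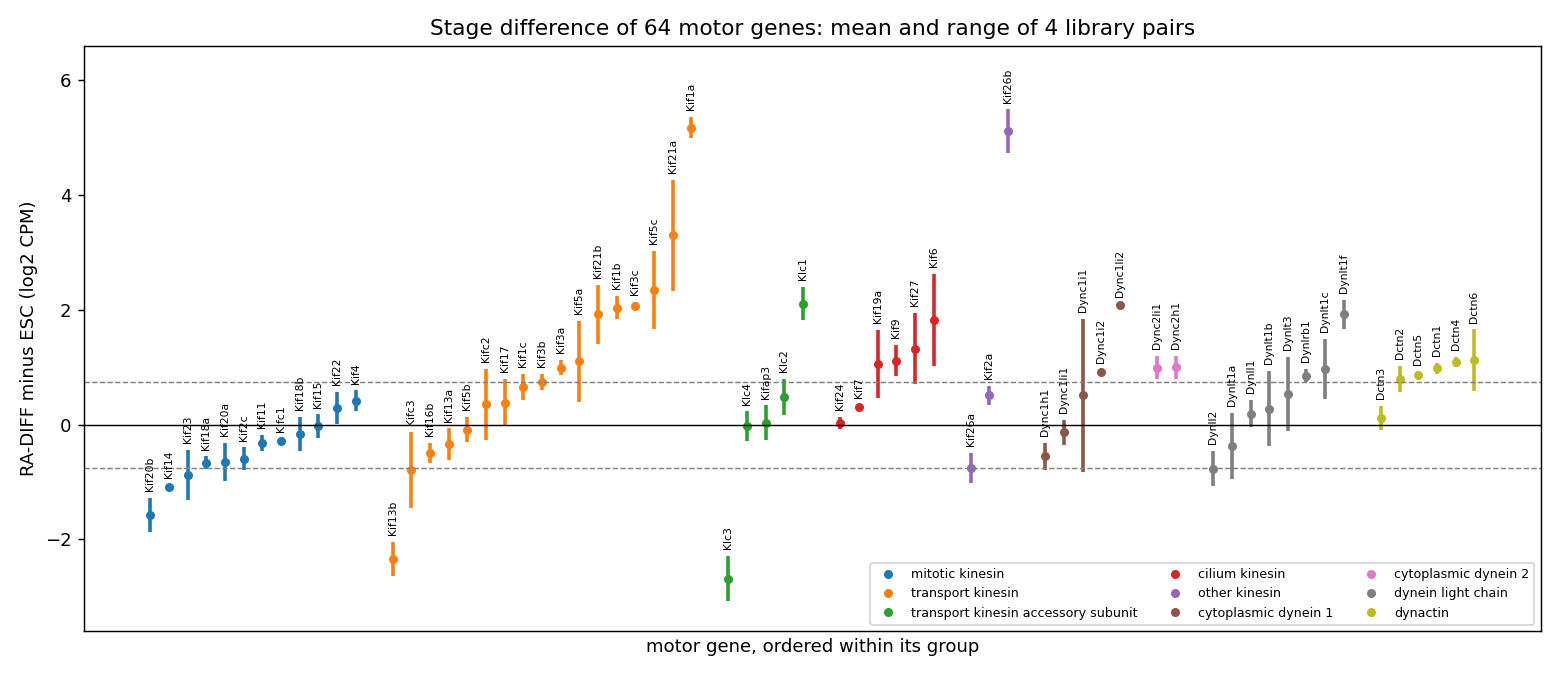
Mean stage difference (RA-DIFF minus ESC, log2 CPM, points) of the 64 tested motor genes, ordered within their role group, with the range over the 4 library pairs (bars, not a standard error) and the limits of 0.75 (dashed). Kif1a and Kif26b lie above 5, and 10 of the 12 mitotic kinesins lie below 0.

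Among mitotic kinesins, 2 of 12 were called lower, a share near the 18.5% of all tested genes called lower, and 10 were within the limit, 8 of these 10 with a negative difference. In single library pairs, which have to pass the limit only once, 2 to 6 of 12 were lower, against 23.5% to 24.9% of all tested genes. Kif20b, a motor of late cytokinesis at chr19:34922358-34975731, stood at 279.8, 228, 76.0 and 94.5 CPM, a stage difference of -1.58 (-1.88 to -1.27). Kif14, which acts at the midbody, stood at 104, 106, 48.3 and 50.2 CPM, a difference of -1.09 (-1.14 to -1.05). For both genes the RA-DIFF libraries lay below the ESC libraries by more than the libraries of a stage lay apart.

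Further mitotic kinesins had both RA-DIFF libraries below both ESC libraries without passing the limit in every pair. Kif23, the motor subunit of centralspindlin in the central spindle, was at 294, 206, 118 and 151 CPM (-0.88, with -1.32 to -0.44 over the pairs). Kif18a, which damps the oscillation of chromosomes at the metaphase plate, was at 111, 101, 64.7 and 69.0 CPM (-0.67, with -0.78 to -0.56). Kif20a, a motor of cytokinesis that carries the chromosomal passenger complex, was at 249, 219, 126 and 176 CPM (-0.65, with -0.98 to -0.31), and overlaps Cdc23 on the other strand. Kif11, the motor that pushes spindle poles apart, was at 375, 319, 283 and 271 CPM (-0.32, with -0.47 to -0.17). Kifc1, a minus-end motor that focuses spindle poles, was at 49.2, 49.2, 39.4 and 41.2 CPM (-0.29), and its counts are uncertain because the near-identical gene Kifc5b can share its reads. The remaining mitotic kinesins lay between -0.60 for the microtubule depolymerase Kif2c and 0.42 for the chromokinesin Kif4.

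A list of other spindle and mitosis genes had a median close to that of the mitotic kinesins. It holds 21 genes, 1 of which, Cenpe, encodes a kinesin that the name rule does not take in. Of the 21, 0 were called higher and 6 lower, against 25.6% and 18.5% of all tested genes, with a median stage difference of -0.44. Those with the largest differences were the midbody protein gene Cep55 (178, 149, 59.9 and 70.3 CPM, -1.33), the cytokinesis regulator Ect2 (466, 394, 184 and 211 CPM, -1.12), the checkpoint kinase Bub1 (358, 291, 150.5 and 155 CPM, -1.08) and the topoisomerase Top2a (2160.5, 1920.3, 994 and 948 CPM, -1.07). The proliferation marker Mki67 lay within the limit on the positive side, at 647, 520.03, 703 and 787 CPM (0.36). Whether the share of dividing cells differed between the stages was not tested.

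Kif1a had the largest stage difference of the 64 genes. This carrier of synaptic vesicle precursors and dense-core vesicles, at chr1:93015464-93101951, went from 8.61 and 10.9 CPM in ESC to 348 and 355 CPM in RA-DIFF, a stage difference of 5.18 (4.99 to 5.36) or 36.2-fold. Kif21a, an axonal kinesin at chr15:90933276-91049948, stood at 26.3, 16.7, 322 and 132 CPM, a difference of 3.30 (2.32 to 4.27). Kif5c, the neuron-enriched form of the conventional kinesin heavy chain at chr2:49619298-49774778, stood at 50.1, 36.5, 297 and 159 CPM, a difference of 2.34 (1.67 to 3.02). The spread of Kif21a and Kif5c was wider than that of Kif1a, with differences between the RA-DIFF libraries of -1.29 and -0.90 and between the ESC libraries of -0.66 and -0.46.

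The other transport kinesins called higher were Kif3c, a kinesin-2 partner of Kif3a (18.2, 17.5, 73.3 and 77.4 CPM, 2.08), the mitochondrial and vesicle motor Kif1b (147, 124, 586 and 524 CPM, 2.04), the dendritic motor Kif21b (42.7, 37.5, 203 and 113 CPM, 1.92) and the kinesin-2 subunit Kif3a (41.5, 46.5, 90.2 and 84.7 CPM, 0.99). Kif3b, the usual partner of Kif3a, lay just inside the limit with a mean of 0.74 and a smallest pair difference of 0.61. Kif5a, the other neuronal conventional kinesin, was at 30.1, 24.0, 83.8 and 39.6 CPM. Its mean difference of 1.10 was larger than that of Kif3a, but its pairs ranged from 0.40 to 1.80 and it was not called. Kif5b, the conventional kinesin of most cells, had overlapping stages at 388, 341, 312 and 374 CPM.

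One transport kinesin was called lower. Kif13b, which carries guanylate-kinase scaffolds such as Dlg1, stood at 94.8, 82.1, 15.2 and 19.8 CPM, a stage difference of -2.34 (-2.64 to -2.05). Its paralogue Kif13a, a motor of recycling endosomes, lay within the limit at -0.34. The endosomal motor Kif16b lay at -0.50, and Kifc3, a minus-end motor of epithelial junctions, at -0.80 with pairs from -1.46 to -0.13.

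**Figure D2:**
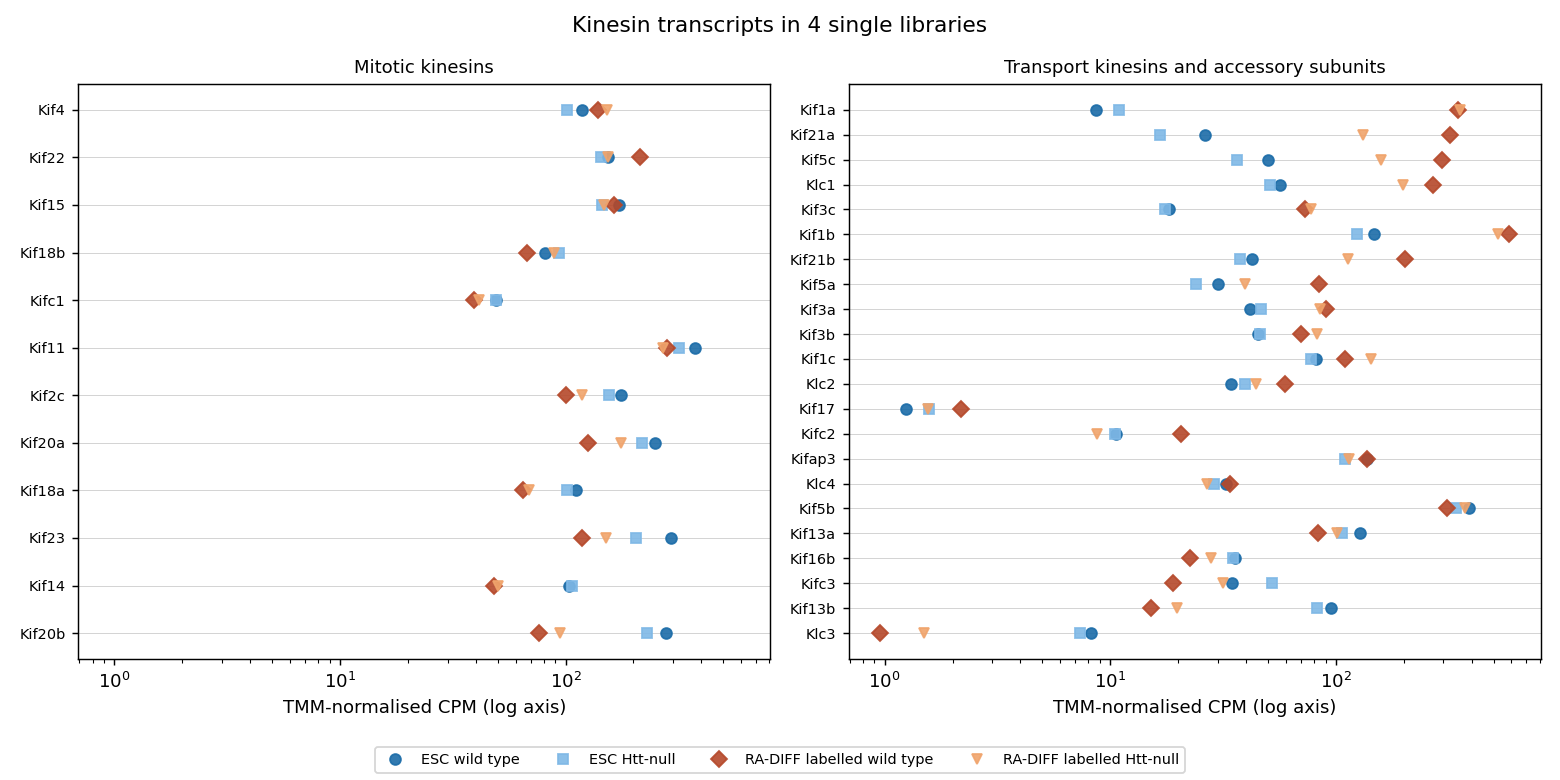
TMM-normalised CPM (log axis) of the 12 mitotic kinesins (left) and of the 17 transport kinesins and 5 accessory subunits (right), 1 point per library, ordered by stage difference. Kif20b and Kif14 at the foot of the left panel have both RA-DIFF points well below the ESC points, while Kif1a at the top of the right panel goes from 8.61 and 10.9 CPM in ESC to 348 and 355 CPM in RA-DIFF.

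Accessory subunits moved singly. Klc1, the kinesin light chain enriched in neurons, stood at 56.4, 51.3, 271 and 199 CPM, a stage difference of 2.11 (1.82 to 2.40), and was called higher. Klc3, a light chain known from spermatids, stood at 8.24, 7.37, 0.95 and 1.49 CPM, a difference of -2.68 (-3.08 to -2.29), and was called lower. Both genes overlap a DNA repair gene on the other strand, Xrcc3 for Klc1 and Ercc2 for Klc3. The methods name no strand option for the counting beyond a general statement that defaults were used. Klc2 (34.1, 39.7, 59.4 and 44.3 CPM), Klc4 (32.7, 28.9, 33.8 and 26.8 CPM) and the kinesin-2 adaptor Kifap3 (138, 109, 138 and 115 CPM) lay within the limit.

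Several families, though not all, differed in make-up between the stages. On the scale of CPM per kb of exon, Kif5b made up 81.1% and 83.3% of the Kif5 family in wild-type and Htt-null ESC, and 42.2% and 62.6% in the RA-DIFF libraries labelled wild type and Htt-null. Kif5c went from 11.7% and 9.97% to 44.8% and 29.8% of that family. In the Kif1 family, Kif1a made up 4.49% and 6.21% in ESC and 43.5% and 43.6% in RA-DIFF, while Kif1c, a motor of broad expression, went from 54.9% and 56.5% to 17.7% and 22.4%. The level of Kif1c itself was not lower, at 82.1, 77.3, 110.3 and 142.5 CPM (0.65). Klc1 held 35.5% and 33.9% of the light chains in ESC and 69.7% and 68.4% in RA-DIFF. The shares of Kif1a and Klc1 differed more between stages than between the libraries of a stage. For Kif5b and Kif5c the RA-DIFF library labelled Htt-null lay between the ESC libraries and the RA-DIFF library labelled wild type.

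**Figure D3:**
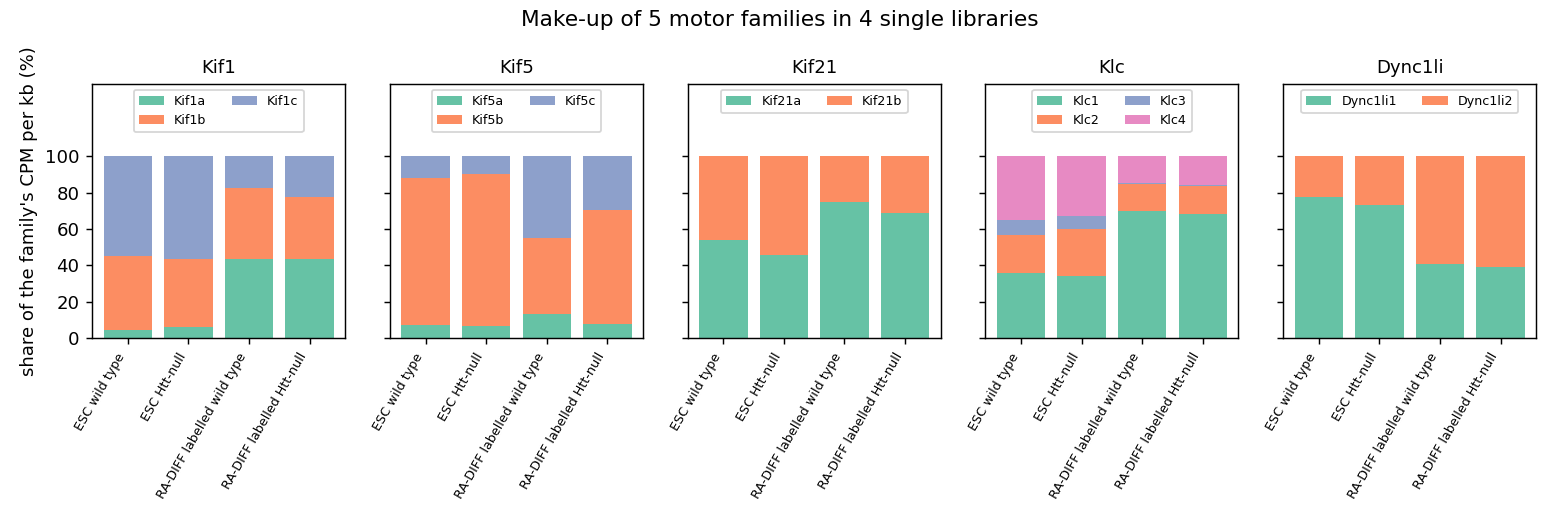
Share of each gene in its family's summed CPM per kb of exon (%, stacked bars) for Kif1, Kif5, Kif21, the kinesin light chains and the dynein 1 light intermediate chains, 1 bar per library. Kif1a, Kif5c, Klc1 and Dync1li2 take larger shares in both RA-DIFF libraries than in either ESC library.

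Of the kinesin cargo adaptors, 10 of 18 tested genes were called higher and 2 lower, against 25.6% and 18.5% of all tested genes. Their median stage difference was 1.28, against 0.14 over all tested genes. The list includes the axonal adaptor Fez1 (8.59, 9.09, 271 and 189 CPM, 4.67), the postsynaptic scaffold Dlg4 (5.56, 5.50, 120.4 and 113 CPM, 4.40), the kinase scaffold Mapk8ip2 (8.89, 11.1, 132 and 52.8 CPM, 3.07) and the receptor adaptor Grip1 (5.92, 8.03, 42.9 and 41.9 CPM, 2.62). The sum of the neuron markers, given above, moved in the same direction across the stages, and its part in these differences was not tested.

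Kinesins of cilia and centrioles were expressed at low levels except Kif24 and Kif7. Kif6, a kinesin of motile cilia, was at 0.48, 1.17, 3.11 and 2.40 CPM, a stage difference of 1.83 (1.03 to 2.63), and Kif9, a kinesin of motile cilia and sperm, was at 2.56, 2.01, 4.60 and 5.28 CPM, a difference of 1.11 (0.84 to 1.39). Both were called higher, 2 of the 6 genes of this group, against 25.6% of all tested genes. Kif19a, which trims the length of motile cilia (1.73, 1.33, 4.22 and 2.40 CPM, 1.06), and Kif27, a relative of Kif7 in motile cilia (2.11, 2.13, 3.48 and 8.16 CPM, 1.32), did not pass the limit in every pair. Kif24, a kinesin of centriole caps (36.6, 33.4, 36.7 and 34.8 CPM), and Kif7, which organises the tip of the primary cilium for Hedgehog signalling (21.4, 22.7, 27.0 and 27.2 CPM), differed by 0.03 and 0.30. Markers of multiciliated cells summed to 32.4, 31.0, 40.6 and 89.8 CPM over 6 genes, with the regulator Foxj1 at 4.28, 3.19, 16.9 and 59.2 CPM and the defining gene Mcidas at no more than 0.17 CPM. Without Foxj1 the sums were 28.1, 27.8, 23.7 and 30.5 CPM over 5 genes, and the ciliary microtubule gene Tekt1 was called lower, at 8.01, 11.5, 3.23 and 3.15 CPM (-1.58).

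Kif26b, an atypical kinesin without motor activity that acts in cell adhesion and polarity, had a difference close to that of Kif1a. It stood at 0.81, 1.07, 37.3 and 29.0 CPM, from 70 counts in each ESC library, a stage difference of 5.11 (4.73 to 5.49). With Kif6 and the light chain Dynlt1f, it passed the expression limit mainly through its RA-DIFF libraries. Its paralogue Kif26a, a regulator of enteric neurons, was at 39.6, 32.5, 23.1 and 19.5 CPM (-0.75) and was not called. Kif2a, a microtubule depolymerase, was at 115, 99.9, 159.7 and 146 CPM (0.51) and was not called.

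Dynein 1 subunits did not move together. The heavy chain Dync1h1, which holds the motor domain, was at 957, 758, 553 and 608 CPM (-0.56, with -0.79 to -0.32 over the pairs), with both RA-DIFF libraries below both ESC libraries but within the limit. The light intermediate chain Dync1li2, a site of cargo adaptor binding, was called higher at 60.9, 59.0, 251 and 255 CPM (2.08, with 2.04 to 2.11). The intermediate chain Dync1i2, which binds dynactin, was called higher at 160.5, 153, 295 and 298 CPM (0.92). Dync1li1, the other light intermediate chain, was at 134, 103, 109.6 and 104 CPM, with overlapping stages. Per kb of exon, Dync1li2 went from 22.7% and 26.9% of the light intermediate chains in ESC to 59.5% and 61.1% in RA-DIFF.

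Both chains of dynein 2 that the name rule takes in were called higher. Dync2h1, the heavy chain of the retrograde ciliary motor, was at 39.8, 32.1, 68.8 and 73.8 CPM (1.00, with 0.79 to 1.20), and Dync2li1, its light intermediate chain, at 16.3, 18.5, 37.4 and 32.0 CPM (0.99, with 0.79 to 1.20). Both lay just past the limit: scaling by library size alone lost Dync2li1, and scaling by DESeq2 size factors lost Dync2h1. Of 20 genes of the intraflagellar transport machinery, 5 were called higher, a share near the 25.6% of all tested genes, and 0 lower, with a median of 0.36. The largest difference was that of the transport protein gene Ift22 (7.80, 7.36, 43.5 and 50.6 CPM, 2.63), followed by Wdr60, an intermediate chain of dynein 2 (9.57, 8.66, 26.6 and 31.0 CPM, 1.65). In the same list Wdr34 and Tctex1d2 lay within the limit, at -0.12 and -0.08, while 17 of the 20 genes had a positive difference.

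Dynein light chains mostly lay within the limit. Dynlrb1, a roadblock light chain, was at 49.8, 57.4, 97.3 and 95.8 CPM (0.85), and its smallest pair difference of 0.74 placed it just outside the call. Dynll1 and Dynll2, the LC8 chains that also bind many proteins outside dynein, were at 293, 229, 284 and 309 CPM and at 259, 234, 169.8 and 123 CPM. Dynll2 had the highest level per kb of all 66 genes in both ESC libraries (94.5 and 85.6 CPM per kb), and Dynlrb1 in both RA-DIFF libraries (96.5 and 94.95 CPM per kb). These ranks depend on the exon lengths used. For Dynll1 that length (3890 bp) equals the whole span of the gene, so its level per kb may be understated. Dynlt1f, one of 4 adjacent and near-identical Tctex-type genes on chromosome 17, was called higher at 0.90, 1.17, 4.13 and 3.76 CPM (1.92), and Dynlt1c of the same cluster was not, at 20.7, 15.2, 42.6 and 28.1 CPM (0.96, with 0.44 to 1.48). Counts of these copies are uncertain because they can share reads. Dynlrb2, the roadblock chain known from ciliated cells, had 0, 2, 80 and 116 counts.

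All 6 dynactin subunits that the name rule takes in (Dctn1 to Dctn6) had positive stage differences. Their median was 0.92 against 0.14 over all tested genes, and 3 were called higher, against 25.6% of all tested genes. Dynactin genes with other names, such as Actr1a, are counted with the cofactors below. Dctn1, the p150Glued subunit that binds dynein and microtubules, was at 95.9, 105, 202 and 193 CPM (0.98, with 0.88 to 1.08). Dctn4 and Dctn5, subunits of the pointed-end complex, were at 62.6, 62.8, 126 and 141 CPM (1.09) and at 39.3, 41.3, 71.8 and 74.2 CPM (0.86). The remaining subunits did not pass in every pair. Dctn2, the dynamitin subunit of the shoulder, was at 116, 96.0, 195 and 172 CPM (0.80, with 0.57 to 1.02), Dctn6 of the pointed end at 18.2, 31.7, 57.5 and 47.5 CPM (1.12, with 0.58 to 1.66) and Dctn3 of the shoulder at 43.3, 47.7, 54.1 and 44.8 CPM (0.12).

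**Figure D4:**
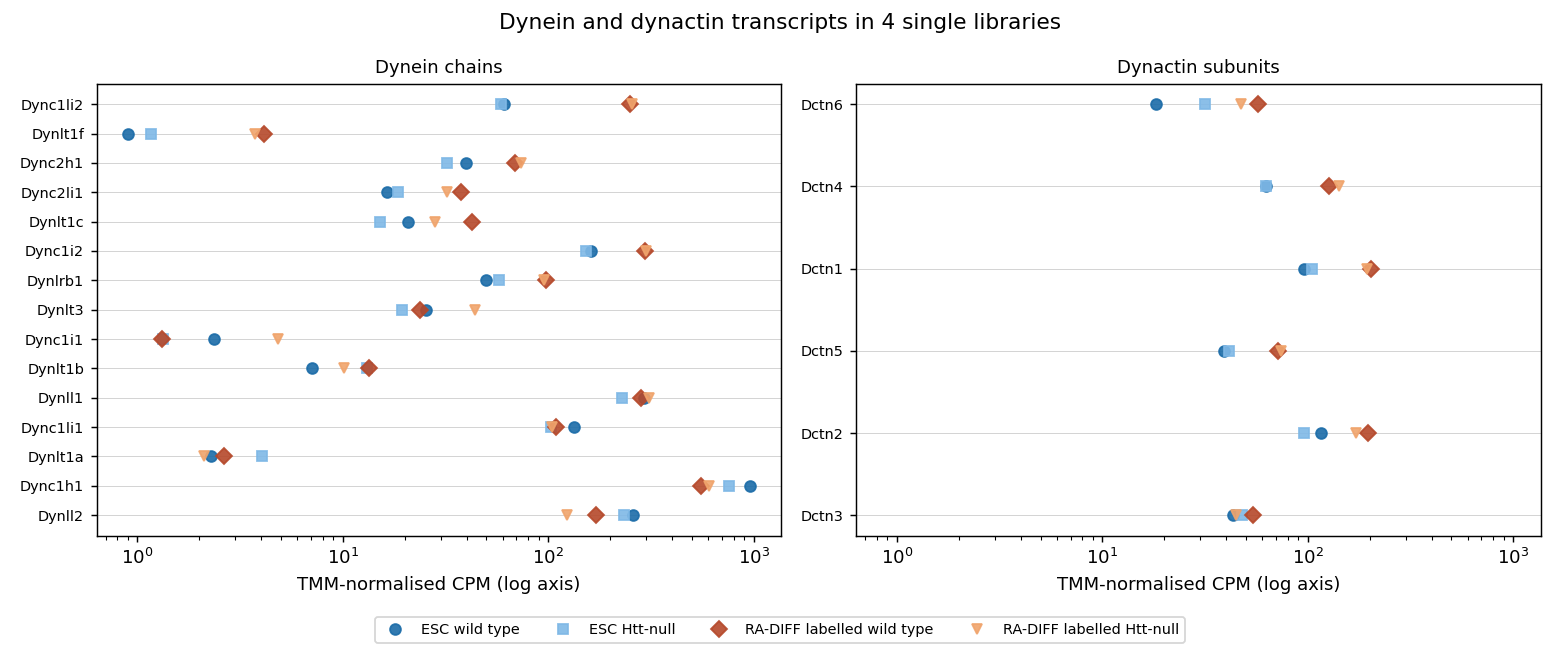
TMM-normalised CPM (log axis) of 15 dynein chains (left, Dynlrb2 left out for its count of 0) and 6 dynactin subunits (right), 1 point per library, ordered by stage difference. The RA-DIFF points of Dync1li2, Dctn1, Dctn4 and Dctn5 lie together, to the right of both ESC points, and Dync1h1 has the highest CPM of the plotted genes in every library.

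Cofactors of dynein and dynactin held 6 genes called higher and 2 called lower among 17 tested, against 25.6% and 18.5% of all tested genes, with a median of 0.25. Actr1a, the gene of the actin-related filament of dynactin, was among those called higher (88.4, 90.5, 280.5 and 269 CPM, 1.62). Of the other Actr and Capz genes in the list, Actr10 was called higher (1.09). Actr1b (0.49), Capza2 (0.32), Capzb (0.25) and Capza1 (0.06) lay within the limit. The cargo adaptors Hook1 (257, 221, 44.5 and 43.5 CPM, -2.43) and Ninl (111, 118, 29.0 and 24.9 CPM, -2.09) were those called lower. Axonemal dynein chains, which beat motile cilia, had 3 of 13 tested genes called higher and 4 lower, against the same shares. Dnah8 had the largest difference of these 13 (124, 135, 2.73 and 1.42 CPM, -6.02). Dnah9, which did not pass the expression limit, had a larger one in the other direction (0.02, 0.11, 3.66 and 8.28 CPM, 6.18).

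The study set the Htt-null line beside the wild-type line at both stages. In ESC, 4 of 64 motor genes were called higher and 1 was called lower in the Htt-null than in the wild-type library, against 3.93% and 2.64% of all tested genes. All 5 calls were lost when an exact test with an assumed dispersion of 0.1 was required as well. At that setting the shares of all tested genes were 0.666% higher and 0.43% lower. No call was lost with a dispersion of 0.01, and 1 of the 5, Kif6, passed a fold limit of 1 (all genes 2.09% higher). The median over the 64 genes was -0.14, against -0.04 over all tested genes. No mitotic or transport kinesin was called.

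Genes called higher in Htt-null ESC were Kif6 (log2 difference 1.23 ± 0.54, counting error at the 95% level, from 42 and 76 counts), Dynlt1b (0.89 ± 0.15), Dynlt1a (0.82 ± 0.26) and Dctn6 (0.80 ± 0.09). Kif6 and Dctn6 were given above by library, Dynlt1a was at 2.29, 4.06, 2.65 and 2.10 CPM, and Dynlt1b was at 7.06, 13.1, 13.4 and 10.1 CPM. The Dynlt1 chains belong to the cluster of near-identical copies, of which Dynlt1c had an ESC difference of -0.44. Dctn6 lies on chromosome 8, whose 767 tested genes had a median ESC difference of 0.36, so that its difference stood beside a shift in the median of its chromosome. That shift's part in the result was not tested. Kifc3, also on chromosome 8, lay within the limit at 0.60, and Dync1li2, on the same chromosome, at -0.05.

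Dync1i1, the intermediate chain of dynein enriched in neurons, at chr6:5725639-6028039, was the gene called lower in Htt-null ESC. It stood at 2.35, 1.33, 1.32 and 4.85 CPM, from 204, 87, 148 and 478 counts, a difference of -0.81 ± 0.36 in ESC and 1.86 ± 0.27 between the RA-DIFF libraries. The stages overlapped for this gene. Dync1i2 made up 96.4% to 99.0% of the intermediate chain per kb in every library, so that Dync1i1 was the minor form throughout.

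Between the RA-DIFF libraries, 3 of 64 motor genes were called higher and 6 were called lower in the library labelled Htt-null than in the one labelled wild type, against 11.0% and 7.37% of all tested genes. Of these 9 calls, 8 were lost, all but Dync1i1, when an exact test with an assumed dispersion of 0.1 was required as well. At that setting the shares of all tested genes were 4.81% higher and 2.62% lower. No call was lost with a dispersion of 0.01. Those lower were 5 of the 17 transport kinesins and 1 cilium kinesin. The transport kinesins were Kif21a (-1.29 ± 0.03), the minus-end motor Kifc2 (-1.24 ± 0.11), Kif5a (-1.08 ± 0.05), Kif5c (-0.90 ± 0.03) and Kif21b (-0.84 ± 0.03). The sixth was the cilium kinesin Kif19a (-0.81 ± 0.23). Kifc2 stood at 10.6, 10.5, 20.6 and 8.72 CPM, so that only the RA-DIFF library labelled wild type lay apart. Kif1a, with the largest stage difference, did not differ past the limit, at 348 and 355 CPM (0.03 ± 0.02), and neither did Kif3c (0.08) or Kif1b (-0.16).

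The 3 genes called higher in the library labelled Htt-null were Dync1i1 (above), Kif27 (1.22 ± 0.17) and Dynlt3, another Tctex-type light chain (25.4, 19.4, 23.6 and 44.0 CPM, 0.89 ± 0.07). No mitotic kinesin was called, and their differences ranged from -0.47 for Kif22 to 0.48 for Kif20a. No dynactin subunit was called either. Of the 12 neuron markers, 10 were also called lower in the library labelled Htt-null, with a median of -1.37 and none listed at 0, and Tubb3 went from 875 to 271 CPM. Of 11 tested fibroblast and mesenchyme markers, 10 were called higher, with Acta2 going from 41.0 to 635 CPM. The part of these cell type differences in the motor gene differences was not tested. With the labels exchanged the same 6 genes would be higher and the same 3 lower in the Htt-null cells.

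**Figure D5:**
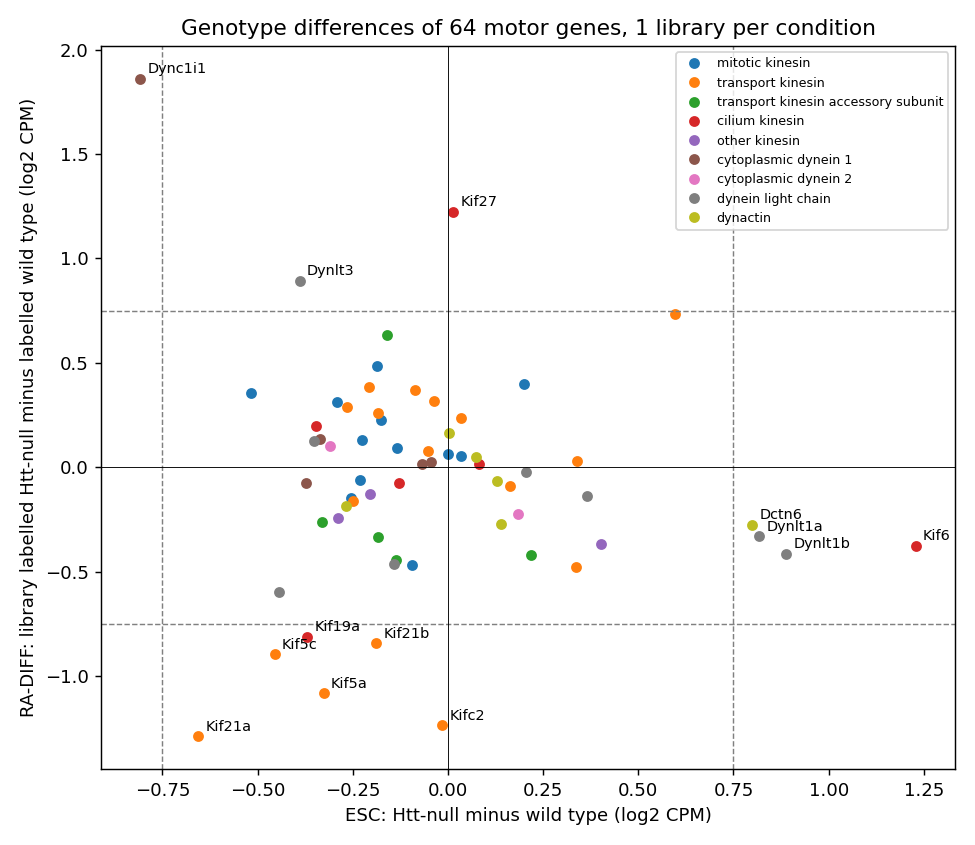
Genotype difference in ESC (horizontal axis, log2 CPM, Htt-null minus wild type) and between the RA-DIFF libraries (vertical axis, library labelled Htt-null minus library labelled wild type) for the 64 tested motor genes, coloured by role, with the limits of 0.75 dashed and called genes named. Dync1i1 is the gene past both limits, at -0.81 and 1.86, and 5 transport kinesins lie below the lower limit of the vertical axis.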

How the data were processed

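Poly-A RNA libraries were strand-specific (dUTP). Per the labels and the study's methods, the authors aligned 50 bp paired reads to the mouse genome (GRCm38) with TopHat2 2.0.14, counted them on GENCODE M6 genes with HTSeq 0.6.1 and deposited raw counts. The methods name no strand option for the counting and state that programs ran with their defaults where nothing else was given. Genes overlapping on opposite strands may share reads. The small RNA table was not used here.

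Counts were normalised over the 4 libraries with TMM (edgeR 4.0.16, R 4.3.3), and log2 CPM used a prior count of 2, which understates differences of low genes. With 1 library per condition the calls rest on no test, and no p-value is given. An exact test with an assumed dispersion served as an alternative. Calls used a limit of 0.75 and a mean log2 CPM above 0. Levels per kb used the union of exons in GENCODE M21. Tables and figures were made with Python 3.11.15.

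The members and lists were chosen with earlier results of these data known. Named genes are the 4 members per role group with the largest stage difference (all in groups of 6 or fewer), the 4 largest calls per direction and genotype comparison, and Kif5a, Kif5b, Kif5c, Kif1a, Kif3a, Kif11, Kif20a, Kifc1, Dync1h1 and Dctn1. Other genes are named where a sentence counts few of them. Alternatives were other scalings, prior counts, limits, single library pairs, and an edgeR exact test with an assumed dispersion of 0.1, the value in the study's methods, or of 0.01.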

Additional observations from a re-analysis of the deposited data

Results flagged for a closer look

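Dync1i1, the neuron-enriched intermediate chain of cytoplasmic dynein, was singled out because its genotype difference had opposite signs at the 2 stages. It was -0.81 in ESC (Htt-null minus wild type) and 1.86 in RA-DIFF (library labelled Htt-null minus library labelled wild type), both past the limit. The difference between the stages was not tested, since each rests on 1 pair of libraries, and both have the same sign if the RA-DIFF labels are exchanged.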

How the results depend on the processing

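The labels give no replicate numbers, and a fit with the line as a block was not run. Scaling by library size alone or by DESeq2 size factors and a prior count of 0.5 changed no genotype call, and changed 1 stage call under each scaling (Dync2li1 and Dync2h1). Without a limit on expression no count of motor genes moved by over 1.5 times, but the share of all genes called in ESC did, to 16% higher and 9.04% lower, above that of the motor genes (5 higher and 1 lower of 66). Between the RA-DIFF libraries the share of all genes called lower went from 7.37% to 13.5%, above that of the motor genes (6 lower of 66). With a mean log2 CPM above 2, calls in ESC went from 5 to 2 (2 higher, 0 lower, all genes 1.61% and 1.35%) and those higher in RA-DIFF labelled Htt-null from 3 to 1 (all genes 9.06%). With a fold limit of 1, motor genes called higher across the stages went from 19 to 12 of 64 (all genes 20.8%), calls in ESC to 1 (1 higher, 0 lower, all genes 2.09% and 1.19%), and calls between the RA-DIFF libraries from 9 to 5 (3 lower, all genes 4.53%). An exact test with an assumed dispersion of 0.01 changed no call. With 0.1 it left 0 calls in ESC (0 higher, 0 lower, all genes 0.666% and 0.43%). Between the RA-DIFF libraries it left 1, Dync1i1 (1 higher, 0 lower, all genes 4.81% and 2.62%). Across the stages, the single pair labelled wild type gave 41 calls against 23, with 29 higher and 12 lower of 64 and 6 of 12 mitotic kinesins lower, against 32.4% higher and 24.9% lower of all genes. The pairs with the RA-DIFF labels exchanged gave 7 of 64 lower with wild-type ESC (all genes 23.9%) and 7 lower with Htt-null ESC (all genes 24.2%). With the latter 4 of 12 mitotic kinesins were lower. A single pair has to pass the limit once and not 4 times. Transport kinesins called higher and mitotic kinesins called higher lay between 6 and 10 (7 as reported) and at 0 under the settings run for the stage comparison, which do not include the exact tests. What limits these values is the single library per condition, 1 line per genotype, the RA-DIFF labels and shared reads of copies, and not depth, except for genes with few counts such as Kif6 and Dync1i1.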
